A study of Mus musculus with 6 samples.

Results

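Lrp1, Sort1, Soat2, Npc1, Npc2, Lipa, Scarb2 and Insig2 encode proteins that take lipoproteins into the hepatocyte or handle the cholesterol they carry once it is inside. The 8 genes were taken by symbol from a table of 29981 gene rows, and each matched exactly 1 row. Liver RNA was sequenced from C57BL/6 mice carrying a hepatocyte deletion of the cholesterol exporter Abca1, made with a Cre recombinase under the Albumin promoter (HSKO, n = 3), and from mice with floxed Abca1 that the labels call wildtype (WT, n = 3). All livers were collected after food had been withheld from 9 am to 1 pm. The sources used here give neither the age and sex of the mice nor whether each sample is a separate animal, and the p-values below cover the spread among these 6 samples, which may be technical. Kupffer cells and endothelial cells do not use the Albumin promoter and should keep Abca1 in this model, which was not measured by cell type.

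Remnant lipoproteins enter hepatocytes through LRP1, a large endocytic receptor of the hepatocyte surface. In the lysosome, acid lipase (Lipa) frees cholesterol from its esters, NPC2 takes up the freed sterol and NPC1 passes it across the lysosomal membrane. At the endoplasmic reticulum the sterol is re-esterified by ACAT2, the product of Soat2, and INSIG2 holds the SREBP escort protein SCAP in place when sterol is plentiful. Sortilin, the product of Sort1, ferries proteins between the Golgi and endosomes, and Scarb2 encodes LIMP-2, a lysosomal membrane protein that delivers glucocerebrosidase to lysosomes.

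The libraries were shallow, with 631020 to 702013 reads in HSKO and 838637 to 933319 in WT, and a single row, BC071253, took 46.2% to 57.8% of them in HSKO and 43.1% to 52.9% in WT. Values are reads divided by the authors' size factor, called normalized reads below, and 1 read was worth 1.33 to 1.46 normalized reads in HSKO and 0.564 to 0.763 in WT. Abca1 had 2, 1 and 2 reads in HSKO replicates 1 to 3 and 20, 36 and 34 reads in WT replicates 1 to 3, in the direction of the labels. Markers of hepatocytes were detected for 22 of 22 genes, and their summed level was 12297 to 17175 in HSKO and 19917 to 22843 in WT, without overlap (exact permutation test, two-sided, p = 0.1, and 3 against 3 samples cannot give a smaller one).

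Of the 5 genes that could be tested, Lrp1 and Lipa were called lower in HSKO livers and 0 were called higher. Scarb2, Insig2 and Npc1 were tested and did not pass. Npc2, Soat2 and Sort1 had means below the 10 normalized reads over all 6 libraries that were required for testing. Npc2 lay just under that line at 9.80 and Lipa just above it at 10.3. Lipa, Scarb2 and Insig2 passed it only through WT, having means below 10 in HSKO, and Npc2, whose mean was above 10 in HSKO alone, was kept out. The filter thus had a part in which genes could be called in each direction, though Npc2 was not called without it either. The test was limma on log2(normalized reads + 1) over 2750 rows, with an adjusted p below 0.05 counted as a call. Across all tested rows 11.6% were called lower and 28.5% higher, and 8.81% were called lower among rows with a mean of 10 to 20, where Lipa, Scarb2, Insig2 and Npc1 lie. The 2 calls among 5 tested genes are therefore not read against that background. For the 5 tested genes, 0 were higher also at an unadjusted limma p below 0.05 and with edgeR and DESeq2.

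**Figure D1:**
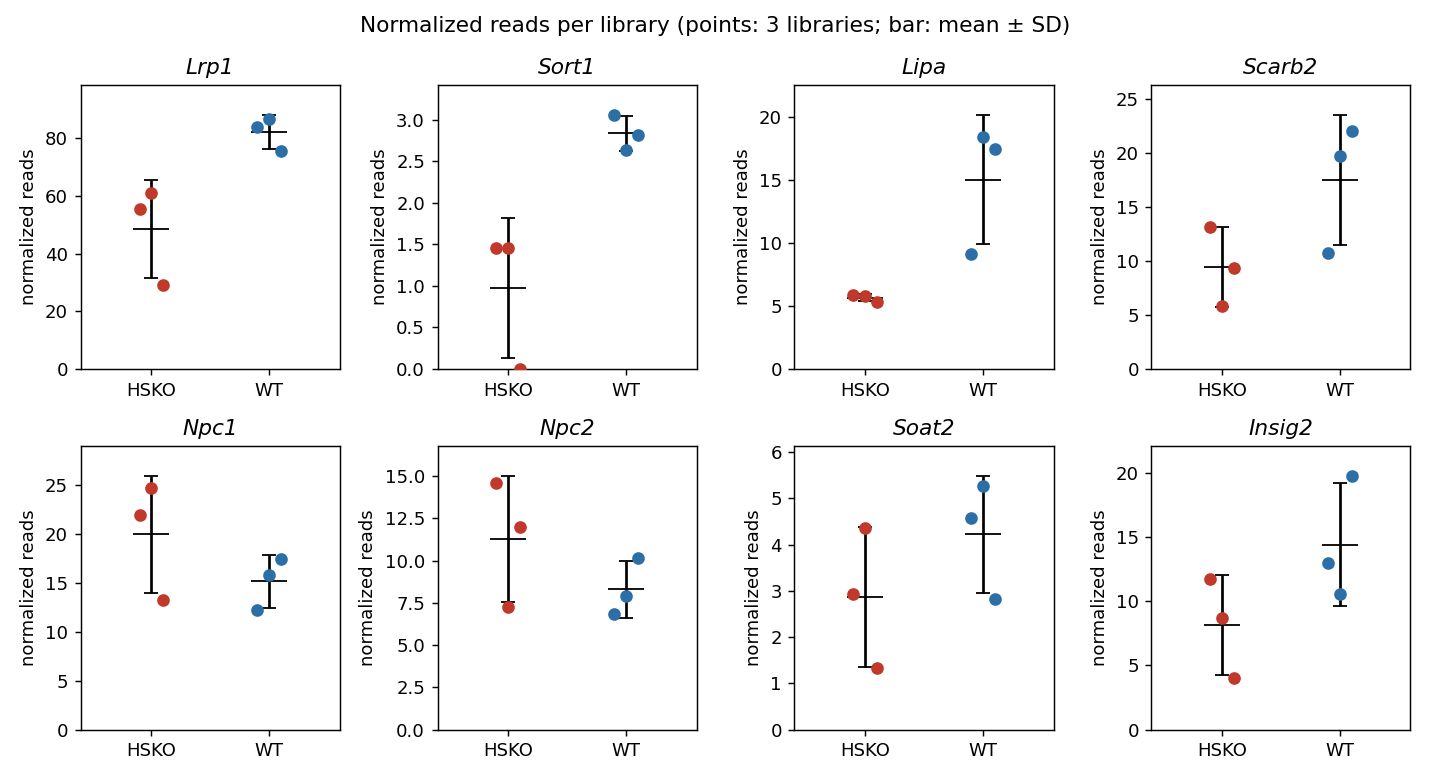
Normalized reads of the 8 genes in each library (vertical axes start at 0 and differ between panels; points are libraries, bars are mean ± SD, n = 3 per group). The HSKO libraries lie below all WT libraries for Lrp1, Sort1 and Lipa, and the groups overlap for the other genes.

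Lrp1 (chr10:127538161-127621148, minus strand, GENCODE M21 on mm10, as for all genes placed here) was the most abundant of the 8 rows and had lower values in HSKO livers. Its level was 55.5, 61.1 and 29.3 normalized reads in HSKO replicates 1 to 3, against 83.9, 86.9 and 75.6 in WT replicates 1 to 3. The groups did not overlap, a pattern seen with HSKO below WT in 20.1% of tested rows. HSKO replicate 3 stood well below the other HSKO libraries. The means were 48.6 ± 17.0 in HSKO and 82.1 ± 5.86 in WT (SD, n = 3). The log2 fold change was -0.81 with an SE of 0.28 (limma adjusted p = 0.0273). The values came from 102 reads in HSKO and 376 in WT, and the ratio of HSKO to WT corrected for size factors was 0.588 (exact 95% interval 0.468 to 0.734, counting error only). The call was lost without HSKO replicate 3 (log2 fold change -0.49, limma adjusted p = 0.147) and without WT replicate 2 (-0.77, limma adjusted p = 0.0905).

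Sort1 (chr3:108284082-108361511, plus strand) was nearly absent from these libraries. It had 1, 1 and 0 reads in HSKO replicates 1 to 3, against 4, 4 and 5 reads in WT replicates 1 to 3. The corresponding levels were 1.46, 1.45 and 0 normalized reads in HSKO and 3.05, 2.63 and 2.82 in WT. A count of 0 allows up to 3 reads, or 3.99 normalized reads in HSKO replicate 3, which is above every WT value. Among rows with a mean of 1 to 10, all HSKO libraries lay below all WT libraries in 13.7%. The ratio of HSKO to WT was 0.333 (exact 95% interval 0.0365 to 1.47, counting error only), so a difference was not detectable at this depth.

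Lipa (chr19:34492318-34527474, minus strand) had the largest fold change of the 5 tested genes and was tested only because of its WT level. The acid lipase transcript was at 5.85, 5.82 and 5.32 normalized reads in HSKO replicates 1 to 3, against 9.16, 18.4 and 17.5 in WT replicates 1 to 3. All HSKO libraries were below all WT libraries, and WT replicate 1 was the closest to them. The means were 5.66 ± 0.296 in HSKO and 15.0 ± 5.10 in WT (SD, n = 3). The log2 fold change was -1.21 with an SE of 0.43 (limma adjusted p = 0.0306). Each HSKO value rests on 4 reads, and the WT libraries had 12, 28 and 31 reads. The ratio of HSKO to WT was 0.366 (exact 95% interval 0.181 to 0.680, counting error only). Without WT replicate 2 or WT replicate 3 the call was lost (limma adjusted p = 0.175 and 0.154, log2 fold changes of -1.04 and -1.08).

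The promoters of Lrp1 and Lipa, the called genes, and of Npc2, which acts directly after acid lipase, are shown for comparison. Each sequence is the 250 bases before the RefSeq transcription start on the GRCm38.p6 build, read 5′ to 3′ along the gene, with GC boxes (GGGCGG on either strand) in capitals. They lie on the minus strand at chr10:127621149-127621398 for Lrp1, chr19:34527475-34527724 for Lipa and chr12:84773113-84773362 for Npc2.
Lrp1: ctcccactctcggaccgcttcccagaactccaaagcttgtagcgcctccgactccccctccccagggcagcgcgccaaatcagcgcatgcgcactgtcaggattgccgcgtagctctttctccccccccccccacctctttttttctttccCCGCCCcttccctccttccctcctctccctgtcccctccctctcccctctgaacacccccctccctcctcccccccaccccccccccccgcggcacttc
Lipa: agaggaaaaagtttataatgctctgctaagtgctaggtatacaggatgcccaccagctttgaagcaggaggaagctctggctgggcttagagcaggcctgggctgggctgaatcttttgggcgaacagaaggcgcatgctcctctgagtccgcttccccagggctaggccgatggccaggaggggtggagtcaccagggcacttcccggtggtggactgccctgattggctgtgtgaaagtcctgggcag
Npc2: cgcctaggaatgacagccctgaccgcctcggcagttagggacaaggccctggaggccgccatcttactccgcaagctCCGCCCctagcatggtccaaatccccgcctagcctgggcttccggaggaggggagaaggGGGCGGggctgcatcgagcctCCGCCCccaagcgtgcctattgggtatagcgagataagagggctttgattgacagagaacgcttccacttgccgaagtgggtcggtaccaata
Counted over 300 bases, from 250 before to 50 after the start, Npc2 had 3 GC boxes, Lrp1 had 1 and Lipa had 1, which began 10 bases after the start and so is not in the printed stretch. A GC box was found in 35.7% of the 32851 windows of this kind. The E-box core CACGTG, which lies within the element bound by the lysosomal regulator TFEB, and TCACNCCAC, the core letters of the sterol regulatory element, were searched on both strands. They were in 7.15% and 1.24% of all windows, and neither occurred in the windows of Lrp1, Lipa, Npc2 and Scarb2, or in the 3 windows listed for Insig2. These are matches of letters and were not tested as binding sites. Insig2 has several start sites, and the table gives 1 value for all of its transcripts.

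Scarb2, the LIMP-2 gene (chr5:92441314-92506833, minus strand), had a lower mean in HSKO that did not pass the test. Its level was 13.2, 5.82 and 9.31 normalized reads in HSKO replicates 1 to 3, against 10.7, 19.7 and 22.0 in WT replicates 1 to 3. The groups overlapped because WT replicate 1 lay below HSKO replicate 1. The means were 9.43 ± 3.67 in HSKO and 17.5 ± 5.99 in WT (SD, n = 3). The log2 fold change was -0.83 with an SE of 0.39 and a 95% interval of -1.64 to -0.02 (limma adjusted p = 0.0941). Without WT replicate 1 Scarb2 was called lower (log2 fold change -1.13, limma adjusted p = 0.0367), as with array weights (limma adjusted p = 0.0121).

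Npc1 and Npc2, the pair that exports cholesterol from the lysosome, had higher means in HSKO, with overlapping groups. Npc1 lies at chr18:12189692-12236400 and Npc2 at chr12:84754562-84773152, both on the minus strand. Npc1 was at 21.9, 24.7 and 13.3 normalized reads in HSKO replicates 1 to 3, against 12.2, 15.8 and 17.5 in WT replicates 1 to 3. HSKO replicate 3 lay within the WT values and the other HSKO libraries above them. Npc1 had a log2 fold change of 0.35 with an SE of 0.32 and a 95% interval of -0.32 to 1.01 (limma adjusted p = 0.393). Npc2 was at 14.6, 7.27 and 12.0 normalized reads in HSKO replicates 1 to 3, against 6.87, 7.90 and 10.2 in WT replicates 1 to 3. Here HSKO replicate 2 was among the WT values. From 24 HSKO and 39 WT reads, the ratio of HSKO to WT for Npc2 was 1.33 (exact 95% interval 0.767 to 2.27, counting error only). Npc1 is overlapped on the opposite strand by Rmc1, listed under the older symbol 3110002H16Rik with 1 to 9 reads per HSKO library and 4 to 9 per WT library. The library kit keeps strand, but no source used here gives the strand setting of the counting, so reads of this pair may be mixed.

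The transcripts of the endoplasmic reticulum arm, Soat2 and Insig2, had lower means in HSKO and did not give a call. Soat2 lies at chr15:102150526-102163469 on the plus strand and Insig2 at chr1:121304353-121332589 on the minus strand. Insig2 was at 11.7, 8.72 and 3.99 normalized reads in HSKO replicates 1 to 3, against 13.0, 10.5 and 19.7 in WT replicates 1 to 3. HSKO replicate 1 lay above WT replicate 2, and the lowest value was again that of HSKO replicate 3. Insig2 had a log2 fold change of -0.81 with an SE of 0.43 and a 95% interval of -1.71 to 0.09 (limma adjusted p = 0.137). Soat2 had 2, 3 and 1 reads in HSKO replicates 1 to 3, against 6, 8 and 5 in WT replicates 1 to 3. Its level was 2.92, 4.36 and 1.33 normalized reads in HSKO and 4.58, 5.26 and 2.82 in WT, so the groups overlapped. From 6 HSKO and 19 WT reads, the ratio of HSKO to WT for Soat2 was 0.684 (exact 95% interval 0.224 to 1.78, counting error only), too wide to place it above or below 1.

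Without the filter on low values, limma gave log2 fold changes of -1.07 for Sort1, -0.48 for Soat2 and 0.37 for Npc2, with adjusted p of 0.392, 0.699 and 0.656. In that fit over 13807 rows the calls of Lrp1 and Lipa were lost as well (limma adjusted p = 0.0719 and 0.0654). Without a mean-variance trend the call of Lrp1 was lost (limma adjusted p = 0.0590) and that of Lipa was kept.

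The ratio of reads of a pair of genes within a library does not depend on how libraries are scaled, and 7 of the 8 genes had reads in all 6 libraries. Of the 21 pairs they form, 7 had ratios that did not overlap between HSKO and WT. Among all pairs of tested rows with reads in all libraries the share was 45.1%, above that of these 21 pairs, so that the values below are a description and set nothing apart. Each of the 7 pairs contains Npc1 or Npc2, and pairs that share a gene share its reads, such as the 4 Lipa reads of each HSKO library. Npc1 had 3.75, 4.25 and 2.5 reads for each Lipa read in HSKO replicates 1 to 3, against 1.33, 0.857 and 1 in WT replicates 1 to 3. Npc2 had 2.5, 1.25 and 2.25 reads for each Lipa read in HSKO, against 0.75, 0.429 and 0.581 in WT.

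Relative to Scarb2, Npc1 reads were at 1.43 to 4.25 in HSKO and 0.795 to 1.14 in WT, and Npc2 reads at 1.11 to 1.29 in HSKO and 0.4 to 0.643 in WT. The same held relative to Insig2, with Npc1 at 1.88 to 3.33 in HSKO and 0.886 to 1.5 in WT, and Npc2 at 0.833 to 3 in HSKO and 0.514 to 0.75 in WT. Lrp1 reads per Npc1 read were 2.2 to 2.53 in HSKO and 4.32 to 6.88 in WT. Lipa, Scarb2 and Insig2 overlapped in all ratios among themselves and to Lrp1. These pairs were read out after their values were seen and are given without a test.

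**Figure D2:**
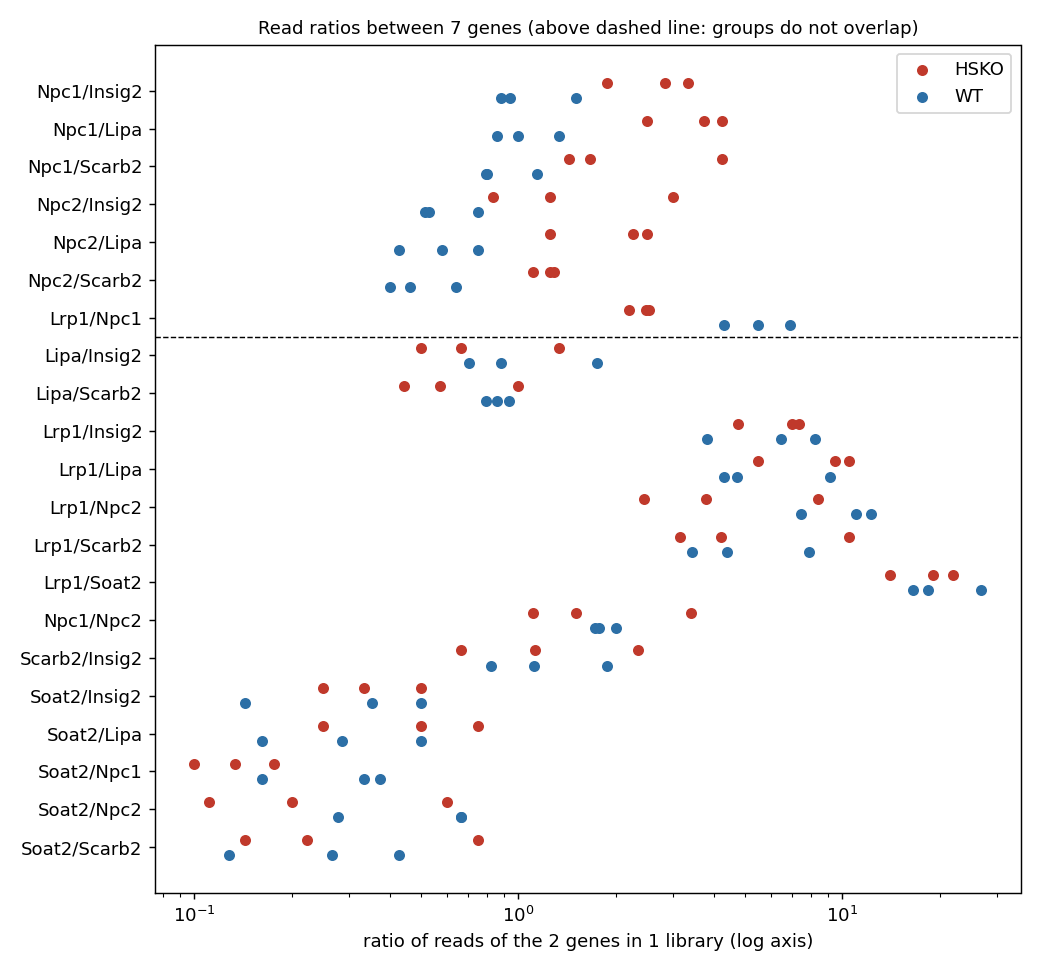
Ratio of the reads of 2 genes within each library (horizontal log axis) for the 21 pairs of the 7 genes with reads in all libraries, with HSKO libraries in red above WT libraries in blue. In the 7 pairs above the dashed line the groups do not overlap, as for Npc1/Lipa with 2.5 to 4.25 in HSKO and 0.857 to 1.33 in WT.

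The sizes of the changes depended on the scaling, while Lipa had the lowest and Npc1 the highest value of the 5 genes under each. All scalings but quantile normalization use a factor per library, which shifts all rows by nearly the same amount. The order of the genes and their distances from the median were thus largely set in advance and are not separate checks. Over 7 scalings the log2 fold change lay between -1.81 and -0.68 for Lipa, between -1.47 and -0.23 for Lrp1, between -1.45 and -0.28 for Scarb2, between -1.43 and -0.27 for Insig2 and between -0.30 and 0.91 for Npc1. The median of all tested rows moved with them, from -0.57 with total reads to 0.63 with hepatocyte markers, and was 0.07 with the deposited scaling. Taken relative to that median, Lipa was at -1.51 to -1.17, Lrp1 at -1.11 to -0.85, Scarb2 at -1.01 to -0.84, Insig2 at -0.96 to -0.74 and Npc1 at 0.27 to 0.32. Lrp1 and Lipa were called lower in 6 of the 7 scalings, and Scarb2 and Insig2 in 3, namely edgeR, total reads and total reads outside BC071253. The share of all tested rows called lower was 38% with total reads, 33.2% with total reads outside BC071253, 21.9% with edgeR, 18.3% with quantile normalization, 7.56% with upper quartile scaling and 0.909% with hepatocyte markers. When libraries were scaled to their hepatocyte markers, 0 of the 5 genes were called (limma adjusted p = 0.669 for Lrp1 and 0.243 for Lipa), and 25 of all 2750 rows were called lower.

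**Figure D3:**
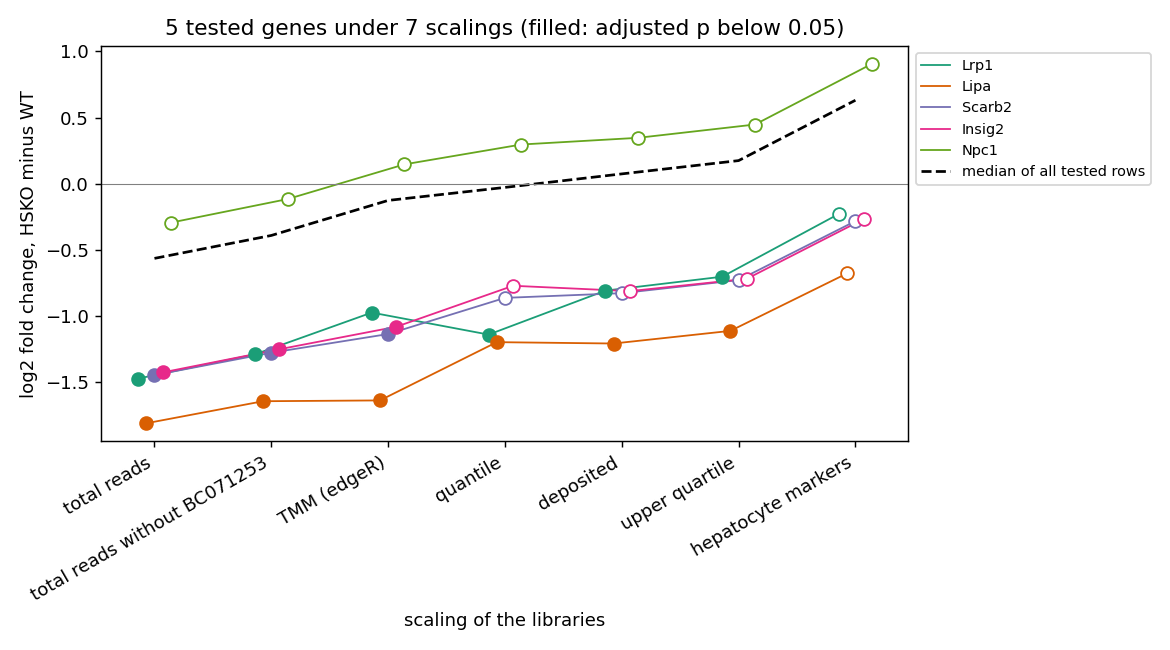
Log2 fold change (HSKO minus WT, vertical axis) of the 5 tested genes under 7 scalings of the libraries (horizontal axis), with filled points for an adjusted p below 0.05 and the median of all tested rows as a dashed line. Lipa, Lrp1, Scarb2 and Insig2 stay below the median and Npc1 stays above it in every scaling. A factor per library shifts all rows nearly alike, so these positions are not separate checks.

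Hepatocyte markers moved in the same direction as Lrp1 and Lipa, with 11 of 22 called lower and a median log2 fold change of -0.62. Among all tested rows 11.6% were called lower and the median was 0.07. The count of 11 was 1 without HSKO replicate 1 or HSKO replicate 2, 6 without WT replicate 2, 2 with no trend or no filter, 4 with upper quartile scaling, 0 with hepatocyte markers, 19 with edgeR and 20 with quantile normalization or either scaling to total reads. It was 14 with DESeq2 or a minimum mean of 50 and 16 with array weights. The most abundant of them, Alb, Apoa1 and Trf, had log2 fold changes of -0.71, -0.04 and -0.63. LRP1, NPC2, acid lipase and LIMP-2 are also made by macrophages. Kupffer cell and macrophage markers were detected for 16 of 16 genes and summed to 62.5 to 112 normalized reads in HSKO and 84.0 to 136 in WT, with overlap (two-sided exact permutation p = 0.5). Slc40a1, Marco and Cd5l were the most abundant of them, and Cd5l was lower in HSKO at 6.46 ± 3.62 against 15.4 ± 5.94 in WT (SD, n = 3, limma adjusted p = 0.0442), a call lost in 4 of the 6 fits that leave out a library (HSKO replicate 1 or 2, WT replicate 2 or 3), with the replicate number as a block, with no filter and with upper quartile, quantile and hepatocyte marker scaling. Cd5l, with a mean below 10 in HSKO, was tested only through WT, and Marco, below 10 in WT, only through HSKO. Slc40a1 averaged 11.7 in HSKO and 17.3 in WT, and Marco 15.1 in HSKO and 8.77 in WT, and neither passed. Endothelial markers, led by Eng, Ptprb and Gpr182, summed to 68.3 to 101 in HSKO and 87.5 to 97.0 in WT, with reads for 13 of 13. Stellate cell and fibroblast markers, led by Tagln, Dcn and Ecm1, summed to 78.5 to 96.5 in HSKO and 75.0 to 83.9 in WT, with reads for 14 of 14. Cholangiocyte markers, led by Spp1, Sox9 and Epcam, summed to 5.32 to 17.5 in HSKO and 11.3 to 15.8 in WT, with reads for 4 of 7 and Krt7, Krt19 and Tspan8 at 0. Lymphocyte markers summed to 0 in every HSKO library, which allows up to 3 reads in each, and to 0 to 1.13 in WT, with reads for 2 of 6, Cd3g and Cd79a, and Cd3e, Cd79b, Ms4a1 and Nkg7 at 0. Red blood cell markers, led by Alas2, Hbb-bs and Hba-a2, summed to 14.5 to 21.3 in HSKO and 14.1 to 25.0 in WT, with reads for 4 of 5 and Slc4a1 at 0. The part of these cell types in the results was not tested, and fewer cells of a type and less RNA per cell cannot be told apart in bulk liver.

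Per kilobase of transcript the 8 genes lay close together apart from Sort1, and their order differed between the groups. Dividing normalized reads by the length of the longest principal transcript in GENCODE M21 gave, in HSKO, 3.82 ± 1.14 for Npc1, 3.42 ± 1.13 for Npc2, 3.27 ± 1.14 for Lrp1, 3.02 ± 1.44 for Insig2, 2.01 ± 0.781 for Scarb2, 1.91 ± 0.0997 for Lipa, 1.30 ± 0.687 for Soat2 and 0.143 ± 0.124 for Sort1 (SD, n = 3). In WT the levels per kilobase were 5.52 ± 0.394 for Lrp1, 5.34 ± 1.77 for Insig2, 5.06 ± 1.72 for Lipa, 3.72 ± 1.27 for Scarb2, 2.90 ± 0.515 for Npc1, 2.52 ± 0.509 for Npc2, 1.91 ± 0.571 for Soat2 and 0.417 ± 0.0310 for Sort1 (SD, n = 3). In both groups every pair of neighbours in that order had overlapping library values, except Soat2 and Sort1. Which transcripts the livers make was not measured, and another choice of length would move these levels.

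Among lipoprotein receptors and their regulators, 8 of 25 genes were tested, of which 1 was called lower, 1 higher and 6 neither (median log2 fold change -0.14, against 0.07 over all tested rows). Those tested rows had 11.6% called lower and 28.5% higher. The gene of the list called lower was Lrp1 itself. Scarb1, the HDL receptor SR-BI, also had all HSKO libraries below all WT libraries, at 5.85, 10.2 and 10.6 in HSKO and 14.5, 13.8 and 17.5 in WT, but did not pass (log2 fold change -0.75, limma adjusted p = 0.111). That order of libraries was seen in 20.1% of all tested rows. Pdzk1, the scaffold that stabilises SR-BI in hepatocytes, was called higher, at 73.7 ± 20.1 in HSKO and 43.4 ± 5.93 in WT (SD, n = 3, limma adjusted p = 0.0391). Its call was lost without HSKO replicate 1, HSKO replicate 2, WT replicate 2 or WT replicate 3, and with no filter, no trend, quantile normalization, edgeR and both scalings to total reads. Of rows with a mean of 50 to 100, where Pdzk1 lies, 49.1% were called higher. Lrp6, a Wnt co-receptor of the same family, was at 10.1 ± 7.89 in HSKO and 12.6 ± 2.79 in WT (SD, n = 3, limma adjusted p = 0.384). Commd1, a subunit of an endosomal complex that returns receptors to the surface, was at 11.3 ± 0.921 in HSKO and 9.14 ± 1.09 in WT (SD, n = 3, limma adjusted p = 0.574).

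Sorting receptors and retromer genes were mostly too low to test, with 2 of 27 tested, 1 called higher and 0 lower (0 lower also at an unadjusted limma p below 0.05 and, adjusted, with edgeR and DESeq2). Of the 2, 1 was lower with either scaling to total reads, and with edgeR at an unadjusted p below 0.05. Vps26b, a retromer subunit, was called higher, at 126 ± 19.6 in HSKO and 60.1 ± 19.4 in WT (SD, n = 3, log2 fold change 1.10, limma adjusted p = 0.00384). The call of Vps26b was lost with total reads. Such calls were common at its level, with 49.1% of rows with a mean of 50 to 100 called higher. Vps35, which forms the retromer core together with it, was at 7.96 ± 3.12 in HSKO and 12.6 ± 0.303 in WT (SD, n = 3) and did not pass (limma adjusted p = 0.198).

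Of 49 lysosomal hydrolase and membrane protein genes 14 were tested, with 3 called lower, 0 higher and 11 neither, and a median log2 fold change of -0.44. All tested rows together had 11.6% called lower and 28.5% higher, with a median of 0.07. The 3 lysosomal genes called lower were Lipa, Lamp2 and Ctsd. At an unadjusted limma p below 0.05, 0 were higher and 6 lower, and after adjustment edgeR called 0 higher and 6 lower and DESeq2 0 higher and 1 lower. The 3 lower calls became 1 without WT replicate 2, 2 without WT replicate 3, 5 without WT replicate 1, 1 with no filter and 11 with either scaling to total reads, while Lamp2 was called lower in all 6 fits that leave out a library. Lamp2, a major protein of the lysosomal membrane, was at 42.4, 36.4 and 17.3 normalized reads in HSKO replicates 1 to 3, against 57.2, 67.8 and 74.4 in WT replicates 1 to 3 (log2 fold change -1.12, SE 0.30, limma adjusted p = 0.00700). Its close relative Lamp1 was at 84.8, 91.6 and 81.1 in HSKO and 101, 95.4 and 84.6 in WT, with overlapping groups (log2 fold change -0.12, limma adjusted p = 0.697). The aspartic protease Ctsd fell to 14.7 ± 3.78 in HSKO, against 29.4 ± 1.40 in WT (SD, n = 3, limma adjusted p = 0.0115), a call lost without WT replicate 2. Psap, the precursor of the saposins, and the protease Ctsb did not pass (log2 fold changes -0.66 and -0.54, limma adjusted p = 0.0542 and 0.0994). Their groups did not overlap, as in 20.1% of all tested rows with HSKO below WT. When libraries were scaled to hepatocyte markers, 0 of the 14 were called lower and 1 higher.

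Sterol transport and esterification genes had 9 of 27 tested, with 4 lower, 1 higher and 4 neither (median log2 fold change -0.56). The shares over all tested rows were 11.6% lower and 28.5% higher, with a median of 0.07. Abca1, the deleted gene, is among the 4 lower genes and was tested only through its WT level. Beside it, the carboxylesterases Ces1d and Ces1g and the sterol carrier protein gene Scp2 were lower, with log2 fold changes of -1.84, -1.44 and -0.68 (limma adjusted p = 0.000652, 0.0175 and 0.0214). Osbpl9, of the oxysterol-binding protein family and named because it was the 1 gene of the list called higher, was higher in HSKO at 36.7 ± 3.62 against 21.8 ± 5.10 in WT (SD, n = 3, limma adjusted p = 0.0361). That call was lost without HSKO replicate 2, HSKO replicate 3, WT replicate 1 or WT replicate 3, and with no filter, no trend, array weights, quantile normalization, edgeR, DESeq2 and both scalings to total reads. Ces1d was called lower in all 6 fits that leave out a library. The call of Ces1g was lost without HSKO replicate 1, WT replicate 2 or WT replicate 3, and with DESeq2. That of Scp2 was lost without HSKO replicate 1, HSKO replicate 2 or WT replicate 2, and with no filter, no trend and upper quartile scaling. With 10 instead of 1 added before the log, the fold change of Ces1g was -0.85, a mark of low values. Ces1g may therefore have passed the filter only through WT. Soat1, the paralogue of Soat2 used by macrophages and many other cells, had 0 reads in all HSKO libraries and 1 read in WT replicate 3.

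Genes of SREBP processing and sterol sensing had calls in both directions, with 2 of 10 tested genes lower, 2 higher and 6 neither (22 listed, median log2 fold change -0.04). For all tested rows the shares were 11.6% lower and 28.5% higher, with a median of 0.07. Insig1, the paralogue of Insig2 and itself an SREBP target, was at 7.31, 10.2 and 12.0 normalized reads in HSKO replicates 1 to 3, against 25.2, 17.8 and 26.5 in WT replicates 1 to 3. Its groups were well apart, unlike those of Insig2, and the log2 fold change was -1.16 with an SE of 0.33 (limma adjusted p = 0.00890). Insig1 too had a mean below 10 normalized reads in HSKO and passed the filter only through WT. Whether the changes of Insig1 and Insig2 differ was not tested. Vcp, the ATPase that pulls ubiquitinated proteins such as HMG-CoA reductase from the membrane, was called lower (log2 fold change -1.34, limma adjusted p = 0.00418). With 10 instead of 1 added before the log, the fold change of Vcp was -0.83, a mark of low values. It may therefore have passed the filter only through WT. Tmem79 and Paqr3, a Golgi protein that binds SCAP, were called higher (log2 fold changes 1.16 and 0.77, limma adjusted p = 0.0162 and 0.0246), and both calls were lost without HSKO replicate 1 or WT replicate 3, with no filter and with both scalings to total reads. That of Paqr3 was also lost without HSKO replicate 2 and with quantile normalization and edgeR. The call of Insig1 was lost without WT replicate 3 and with DESeq2. Scap was at 7.31, 8.72 and 7.98 normalized reads in HSKO replicates 1 to 3 and at 13.0, 17.1 and 9.59 in WT replicates 1 to 3, without a call (limma adjusted p = 0.203). Its groups did not overlap, a pattern of 20.1% of tested rows with HSKO below WT. Srebf2 was not analysed here.

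Insig1 is also counted among SREBP-2 targets, and in that list 5 of 8 tested genes were lower, 2 higher and 1 neither (21 listed, median log2 fold change -1.14). The smallest p-values were those of Sc5d and Idi1, which were lower, and Fdft1 and Sqle, which were higher (limma adjusted p = 0.000652, 0.00242, 0.000710 and 0.000808). Over all 6 lists, without the 8 genes themselves, 12 of 45 tested genes were lower and 7 higher. Among all tested rows 11.6% were lower and 28.5% higher. The 12 include Abca1, the deleted gene, and the lists were chosen with earlier results of these data known. Tested genes of the lists with means below 10 in HSKO also passed the filter only through WT, and those below 10 in WT only through HSKO. The list counts are therefore not read against that share. With libraries scaled to hepatocyte markers, Ces1d, Abca1, Idi1 and Sc5d were the only genes of the 12 still called lower, so that the calls of Insig1, Vcp, Lamp2 and Ctsd were lost, with those of Ces1g and Scp2.

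**Figure D4:**
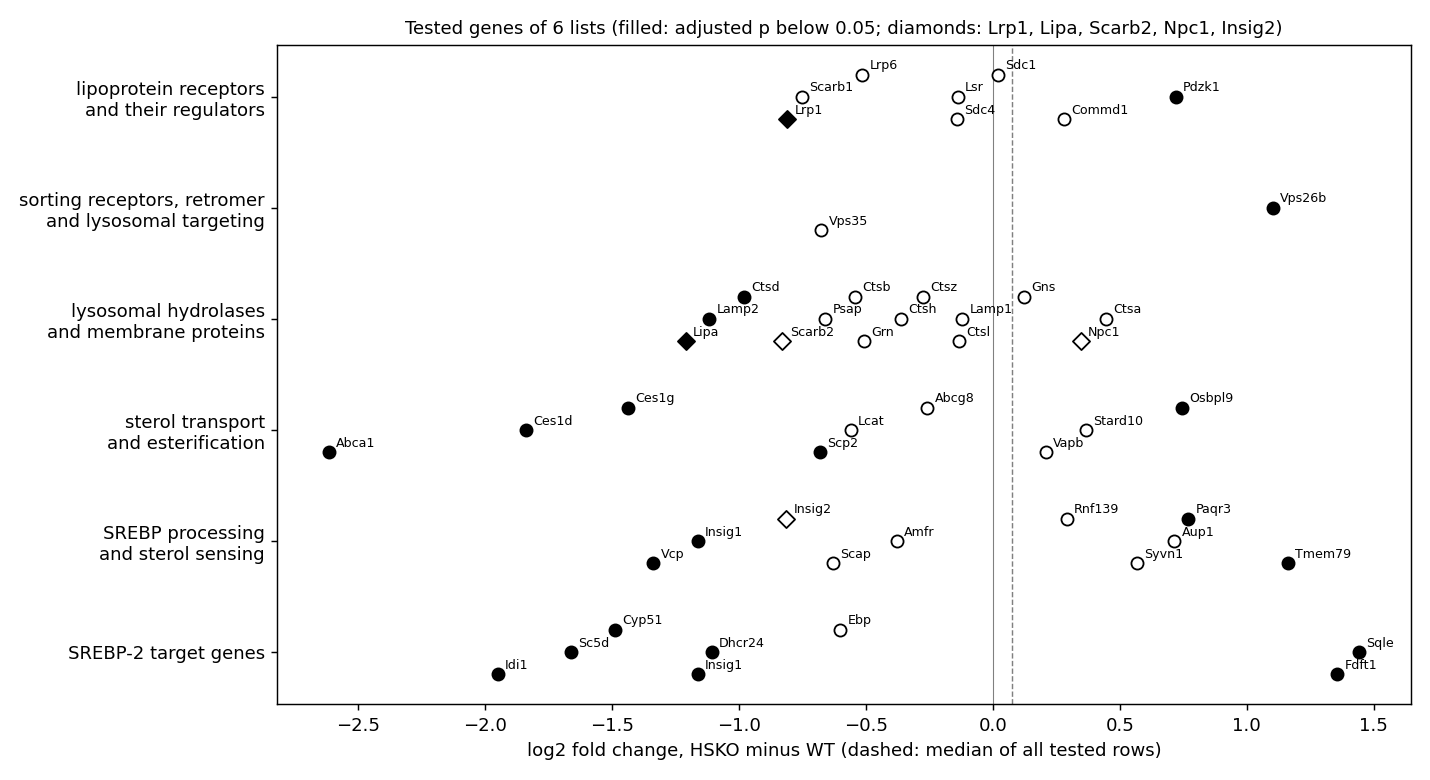
Log2 fold change (HSKO minus WT, horizontal axis) of each tested gene in 6 lists (rows), with filled symbols for an adjusted p below 0.05, diamonds for Lrp1, Lipa, Scarb2, Npc1 and Insig2, and a dashed line at the median of all tested rows (0.07). Lipa, Lamp2 and Ctsd are the filled points of the lysosomal row, and Lrp1 lies left of the other genes of the receptor row.

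The profile of each tested gene over the 6 libraries was compared with those of 2292 tested rows with a gene symbol, by the root mean square difference of log2(normalized reads + 1) after centring each row. The closest to Lrp1 were C8b, Stat3 and Pklr, at differences of 0.11, 0.13 and 0.15, where the profile of Lrp1 itself had a root mean square of 0.52. Lipa was closest to Abcb11, Optn and Abcd3 (0.14, 0.15 and 0.17), Scarb2 to Tmem106b, Hnrnpf and Trim25 (0.12, 0.13 and 0.15), Insig2 to Uso1, Ywhag and Ugt2b35 (0.14, 0.17 and 0.19) and Npc1 to Rufy3, Zfhx2os and Col27a1 (0.12, 0.17 and 0.17). These likenesses are descriptions over 6 libraries.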

How the data were processed

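The authors deposited 1 table of signal, in which the reads of a gene are divided by the size factor of its library. Per the submitters' processing notes, FastQC 0.11.3, Bowtie, RSEM 1.2.9, DESeq 1.16.0 and mm10 were used, with no roles named. No source used here gives the annotation. Per the labels' protocols, libraries were stranded and paired-end. Dividing each value by that of 1 read gave whole reads for 100% of values (tolerance 0.001). HSKO was compared with WT with limma 3.58.1 (R 4.3.3) on log2(value + 1) of the 2750 rows averaging 10 or more, letting the variance follow the mean, two-sided, Benjamini-Hochberg adjusted. The code was run on simulated counts with fewer changed rows than were called here and no shift between groups. That setting is simpler than these data, so the run checks the code and not the calls. DESeq2 1.42.0 and edgeR 4.0.16 on the whole reads were alternatives, beside those listed in the closing section. Scaling to total reads without BC071253 and the GC box search were added after the data were seen. Genes, lists and tests were chosen with earlier results of these data known; 2 listed genes are not reported here and were left out of the lists. Named beside the 8 genes were the 4 smallest p-values of each list, 7 fixed genes, the 3 most abundant markers of each cell type and the 3 nearest profiles. Same-numbered samples did not deviate together.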

Additional observations from a re-analysis of the deposited data

How the results depend on the processing

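Counts of calls changed with the scaling, the filter and the tool. Most fits tested 2750 rows, but 688 were tested with a minimum mean of 50 and 13807 with no filter or DESeq2. Counts from those fits are not shares of the same rows. Genes called higher numbered 783, and 391 with a minimum mean of 50, 221 with total reads and 429 with total reads outside BC071253. Genes called lower numbered 320, and 211 with no filter, 118 with a minimum mean of 50, 208 with upper quartile scaling, 503 with quantile normalization, 1044 with total reads, 913 outside BC071253, 25 with hepatocyte markers, 490 with array weights, 167 with DESeq2 and 601 with edgeR. Leaving out a library gave 581 to 822 higher and 157 to 313 lower. Of the 8 genes, 2 were called lower, and 0 with no filter or hepatocyte markers, 1 with a minimum mean of 50, no trend or DESeq2, 4 with edgeR and with either scaling to total reads, and 0 to 3 with a library left out. Higher calls among them were 0 in all 21 alternatives. With a minimum mean of 50, Lrp1 was the only one of them tested. The 6 lists without these genes had 45 tested genes, but 8 with a minimum mean of 50 and 144 with no filter or DESeq2. In the 6 lists without these genes, the 12 lower calls became 1 with a minimum mean of 50, 26 and 25 with total reads with and without BC071253, 4 with hepatocyte markers and 7 with DESeq2, and 9 to 13 with a library left out. The 7 higher calls became 3 with no filter or a minimum mean of 50, 2 and 3 with the scalings to total reads, 11 with hepatocyte markers, 4 with quantile normalization or edgeR, and 3 to 7 with a library left out. The log2 fold change of Npc1 turned to -0.30 with total reads and -0.12 outside BC071253. The cause was not tested. DESeq2 gave no adjusted p for Lipa and Insig2. On the log2 scale, the hepatocyte marker sum differed by -0.58, and by -1.27, -1.09, 0 and -1.27 with total reads, outside BC071253, with hepatocyte markers (by construction) and with quantile normalization. The Kupffer cell sum differed by -0.30, and by -0.95, -0.79 and 0.26 with the first 3 of these, and the endothelial sum by -0.07, and by -0.75, -0.57 and 0.54. With the replicate number as a block, 751 genes were higher and 269 lower, and the calls of Lrp1 and Lipa held (limma adjusted p = 0.0312 and 0.0457). Correlations of same-numbered samples lay between -0.03 and -0.02, so they shared no deviation. This does not show whether the samples were collected in pairs. Chi-square per degree of freedom between the reads of 2 libraries was lowest for HSKO replicates 1 and 2, at 2.35. For WT replicate 1 it was 11.1, 12.7 and 18.45 with HSKO replicates 1 to 3, and 15 and 15.75 with WT replicates 2 and 3. WT replicate 1 was thus no nearer to the other WT libraries than to HSKO replicates 1 and 2. The measure also depends on depth, and whether the 3 HSKO samples are independent was not tested.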

Other observations

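The mannose 6-phosphate receptors, which carry acid lipase and other hydrolases to lysosomes, were too low for the test. M6pr was at 4.38, 4.36 and 9.31 normalized reads in HSKO replicates 1 to 3, against 11.4, 16.5 and 12.4 in WT replicates 1 to 3. Igf2r was at 2.92, 5.82 and 1.33 in HSKO, against 8.39, 5.92 and 13.0 in WT. Nceh1, a neutral cholesteryl ester hydrolase, was at 4.38, 4.36 and 0 in HSKO, against 5.34, 5.92 and 9.59 in WT. All 3 genes had HSKO libraries below WT libraries, from 13, 7 and 6 reads in HSKO and 62, 43 and 33 in WT, and they were named after their values were seen. That order of libraries held in 13.7% of rows with a mean of 1 to 10, and without the filter on low values limma called none of the 3 (adjusted p = 0.114 for M6pr, 0.139 for Igf2r and 0.221 for Nceh1).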
